A study of Mus musculus with 19 samples.

Results

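The 10 genes described here carry out or control bile acid synthesis and transport in the hepatocyte: Cyp7a1, Cyp8b1, Cyp27a1, Baat, Slc10a1, Abcb11, Abcb4, Abcc2, Nr1h4 and Nr0b2. They were taken by name, and all 10 were found among the 39179 gene identifiers of the count table. Their RNA was described across 10 mouse liver tumours, numbered 04 to 13. The tumours arose in male mice of mixed background that carried 1 mutant Ctnnb1 allele (Ctnnb1tm1Mmt, HET) and were homozygous for a MYC transgene at the Rosa26 locus (Gt(ROSA)26Sortm1(MYC)Djmy, HOM). Both alleles were switched on by Cre from an adeno-associated virus, AAV8.TBG.PI.Cre.rBG, at 640000000 genome copies per mouse. The TBG promoter of this virus drives Cre in hepatocytes, so the alleles were activated in that cell type. The series also lists 3 more tumours and 6 control livers, which were not analysed here, so no level below is set against non-tumour liver. All 10 tumours shared the alleles and the virus, and they differed in the tag of their column names. The first part of the tag divides them into family RMH4 (tumours 04 to 06), family RMH18 (07 and 08) and family RMH35 (09 to 13). The full tags were RMH4_5b (tumour 04), RMH4_5c (05 and 06), RMH18_1d (07 and 08), RMH35_1b (09 and 10) and RMH35_1c (11 to 13). Nothing in the labels explains the tag, and tumours of the same tag may not be independent.

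Bile acids are made from cholesterol in hepatocytes. Cyp7a1, the rate-limiting enzyme of the classic route, adds a hydroxyl group to the ring, Cyp8b1 adds the hydroxyl group that makes cholic acid, and Cyp27a1 oxidises the side chain and opens the alternative route. Baat conjugates the products to taurine or glycine, Slc10a1 (NTCP) takes bile salts up from the blood, and Abcb11 (BSEP) exports them into the canaliculus, where Abcb4 (MDR2) delivers phosphatidylcholine and Abcc2 (MRP2) exports conjugated organic anions. Nr1h4 (FXR) is the nuclear receptor that senses bile acids, and it induces Abcb11 and Nr0b2 (SHP), a corepressor that lowers Cyp7a1 and Cyp8b1.

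Sequence upstream of the start site is shown for Abcb11 and Abcc2, which varied with Cyp7a1 between tumours, for Cyp8b1, the member with the widest spread, and for the corepressor Nr0b2. The 250 bases were taken from RefSeq on GRCm38.p6, which held windows for 8 of the 10 members; Cyp7a1 and Baat were not among them. Capitals mark matches, on either strand, to 6 motifs: the FXR inverted repeat (arms GGNCA and TGACC around any 1 base), CAAAGTCCA (HNF4A), CAAGGNCA (NR5A2), CACGTG (E-box), CTTTGAT (TCF/LEF) and the HNF1 pattern (arms GTTAAT and ATTA around any 1 base). The windows are chr2:69342617-69342866 on the minus strand for Abcb11, chr19:43782058-43782307 on the plus strand for Abcc2, chr9:121916306-121916555 on the minus strand for Cyp8b1 and chr4:133553126-133553375 on the plus strand for Nr0b2.
Abcb11: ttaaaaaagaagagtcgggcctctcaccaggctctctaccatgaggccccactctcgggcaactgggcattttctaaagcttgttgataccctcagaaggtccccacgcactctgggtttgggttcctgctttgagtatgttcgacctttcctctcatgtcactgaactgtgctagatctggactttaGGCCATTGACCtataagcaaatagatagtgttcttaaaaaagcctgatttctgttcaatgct
Abcc2: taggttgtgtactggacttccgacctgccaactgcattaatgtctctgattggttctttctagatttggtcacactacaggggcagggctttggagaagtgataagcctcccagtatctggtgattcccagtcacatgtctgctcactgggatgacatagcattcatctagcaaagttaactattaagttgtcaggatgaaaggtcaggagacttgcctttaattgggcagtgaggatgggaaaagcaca
Cyp8b1: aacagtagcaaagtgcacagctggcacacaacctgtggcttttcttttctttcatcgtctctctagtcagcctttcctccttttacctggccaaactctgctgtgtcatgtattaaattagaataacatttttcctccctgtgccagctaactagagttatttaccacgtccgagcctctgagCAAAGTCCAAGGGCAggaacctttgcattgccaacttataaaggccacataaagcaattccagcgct
Nr0b2: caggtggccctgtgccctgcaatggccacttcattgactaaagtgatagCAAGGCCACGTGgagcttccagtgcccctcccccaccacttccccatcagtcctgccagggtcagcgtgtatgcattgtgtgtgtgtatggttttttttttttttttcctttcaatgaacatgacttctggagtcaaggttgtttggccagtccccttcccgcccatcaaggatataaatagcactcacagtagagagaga
The Abcb11 window holds the FXR inverted repeat at bases -62 to -52 before the start, a pattern found in 0.198% of 32851 upstream windows of the same length. The Cyp8b1 window holds the HNF4A pattern at -67 to -59 (0.384% of all windows) and, overlapping its end, the NR5A2 pattern at -60 to -53 (5.53% of all windows). The Nr0b2 window holds the NR5A2 pattern at -201 to -194, overlapping an E-box at -195 to -190 (6.02% of all windows). No member window held the TCF/LEF pattern, present in 3.21% of all windows, or the HNF1 pattern, present in 0.134%. These are matches of letters and not measured binding sites.

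The libraries held between 11687034 and 36964427 gene counts, with a median of 16664597. Alignments recorded as not unique made up 45.4% to 57.9% of all records. Tumour 07 had the highest share of them and the fewest gene counts. Levels are given as counts per 1000000 counts (CPM) after TMM scaling, at which 3 counts, taken as the floor, correspond to 0.0812 to 0.257 CPM by depth. Reads were counted without molecular identifiers and are not independent molecules, so the floor covers counting error alone. Every member lay far above its floor, the lowest being 76 counts of Cyp8b1 in tumour 04. The tissue label was checked against 8 hepatocyte genes, all of which passed the expression filter, with albumin (Alb) between 13016 and 22960 CPM. The 8 lymphocyte markers summed to 0.908 to 6.05 CPM and the 8 cholangiocyte markers to 34.7 to 106 CPM. The blood markers summed to 101 to 6181 CPM and were highest in tumour 07. In bulk tissue, fewer hepatocytes and less RNA of a gene per hepatocyte cannot be told apart.

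All 10 members were expressed in every tumour, and they differed in how far they varied. The widest spread was that of Cyp8b1, which ran 53.8-fold from the lowest to the highest tumour, followed by Slc10a1 with 12.6-fold and Cyp7a1 with 6.43-fold. The narrowest were Nr1h4 with 1.75-fold and Abcb4 with 1.77-fold. These folds rest in part on 1 tumour. Without tumour 04 they were 12.1 for Cyp8b1 and 6.56 for Slc10a1, without tumour 12 they were 7.80 for Slc10a1 and 3.70 for Cyp7a1, and without tumour 09 that of Cyp27a1 was 1.41.

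Among the enzymes, Cyp7a1 (chromosome 4, 6265612 to 6275632, GRCm38.p6) was lowest in tumour 06 at 106 CPM, had a median of 316 and was highest in tumour 12 at 684. Its mean was 312 ± 164 CPM (SD, n = 10). Tumours 04, 05 and 06 were its 3 lowest, at or below 173 CPM, while the other 7 lay at or above 257. Cyp8b1 (chromosome 9, 121914356 to 121916305) was lowest in tumour 04 at 5.33 CPM, had a median of 128 and was highest in tumour 13 at 287, with a mean of 128 ± 95.8 CPM (SD, n = 10). Tumour 10 was its next lowest at 23.7 CPM, so that its low values were found in more than 1 tag family. Cyp27a1 (chromosome 1, 74713148 to 74737897) ranged from 359 CPM in tumour 09 through a median of 651 to 769 in tumour 07, with a mean of 626 ± 119 (SD, n = 10). The other 9 tumours lay between 544 and 769 CPM, and tumour 09 stood below them. Baat (chromosome 4, 49489416 to 49507915) ranged from 37.4 CPM in tumour 09 through a median of 56.6 to 124 in tumour 12, with a mean of 63.6 ± 25.0 (SD, n = 10).

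Among the transporters, Slc10a1 (chromosome 12, 80953185 to 80968705) was lowest in tumour 04 at 12.8 CPM, had a median of 49.7 and was highest in tumour 12 at 161, with a mean of 61.5 ± 43.7 (SD, n = 10). High and low values of this uptake carrier occurred side by side within families, with 24.5 CPM in tumour 07 and 99.7 in tumour 08. Abcb11 (chromosome 2, 69238282 to 69342616) ranged from 233 CPM in tumour 06 through a median of 539 to 685 in tumour 12, with a mean of 508 ± 150 (SD, n = 10). Tumours 05 and 06 held its 2 lowest values, while tumour 04 of the same family reached 522 CPM. Abcb4 (chromosome 5, 8893614 to 8959226) ranged from 323 CPM in tumour 06 through a median of 451 to 573 in tumour 08, with a mean of 450 ± 66.6 (SD, n = 10). Abcc2 (chromosome 19, 43782308 to 43838332) ranged from 249 CPM in tumour 05 through a median of 507 to 794 in tumour 13, with a mean of 488 ± 173 (SD, n = 10). As for Cyp7a1, the 3 lowest tumours for Abcc2 were 04, 05 and 06, at or below 321 CPM, and the other 7 lay at or above 462.

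Of the nuclear receptors, Nr1h4 (chromosome 10, 89454234 to 89533645) ranged from 63.1 CPM in tumour 04 through a median of 73.6 to 111 in tumour 12, with a mean of 77.8 ± 16.6 (SD, n = 10). Nr0b2 (chromosome 4, 133553376 to 133556686) ranged from 11.1 CPM in tumour 05 through a median of 27.9 to 43.9 in tumour 08, with a mean of 29.1 ± 10.7 (SD, n = 10). Its highest values were those of tumours 07 and 08, the whole of family RMH18, followed by tumour 11 at 39.7 CPM.

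**Figure D1:**
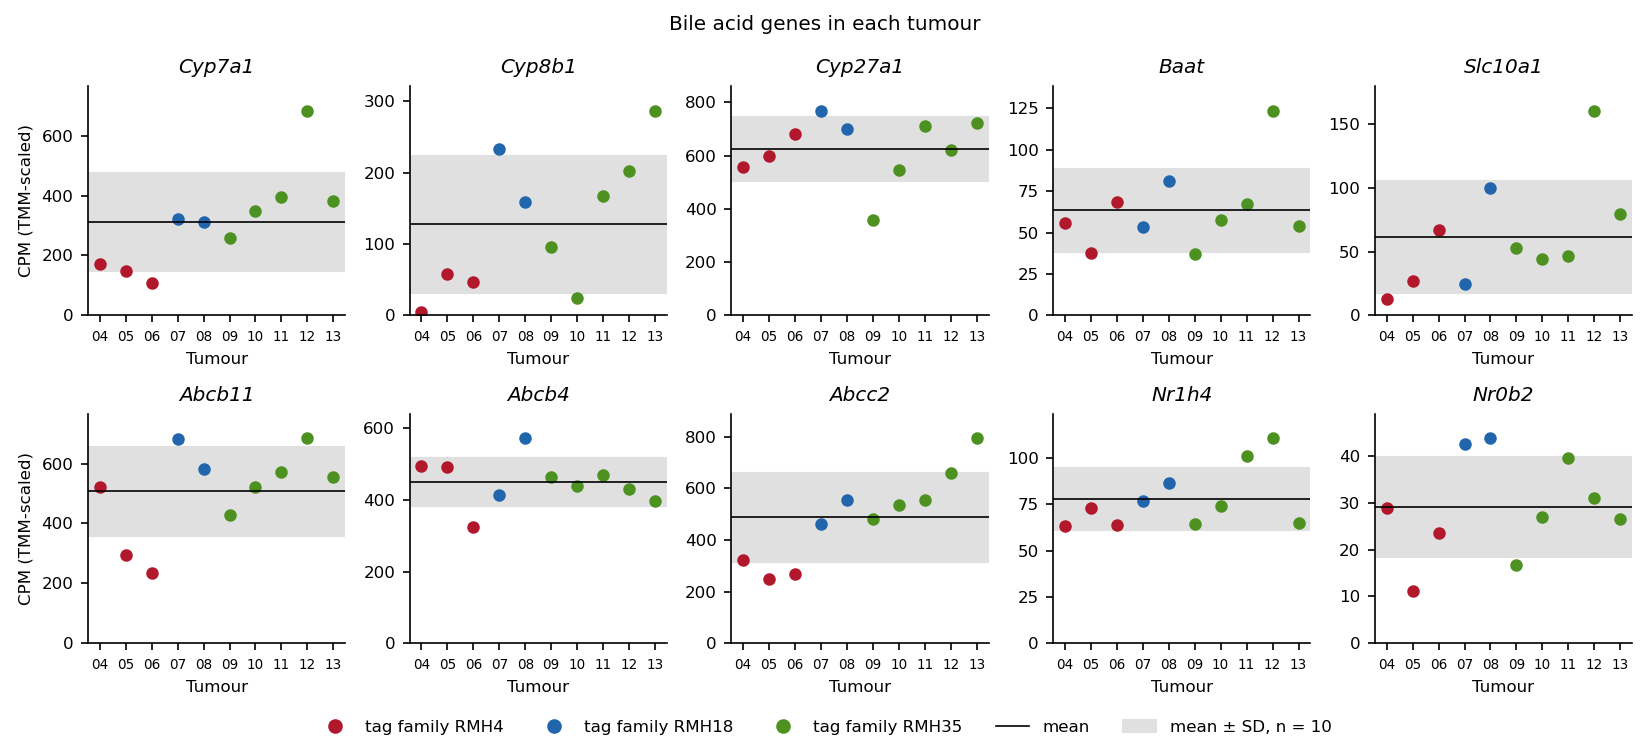
Level of each member in CPM (vertical axis, linear, from 0) in tumours 04 to 13 (horizontal axis), coloured by tag family, with the mean as a line and the mean ± SD as a grey band (n = 10). Cyp7a1 and Abcc2 show the 3 tumours of family RMH4 below all others, and Cyp8b1 falls to 5.33 CPM in tumour 04.

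Levels of different genes were compared per length, as transcripts per 1000000 (TPM) computed from the counts and the union of exons. Cyp27a1 was the most abundant member at 616 ± 107 TPM, followed by Abcb11 at 299 ± 84.0, Cyp7a1 at 247 ± 132, Cyp8b1 at 216 ± 165 and Abcc2 at 186 ± 73.7 (SD, n = 10). Abcb4 followed at 110 ± 18.8 TPM, Baat at 95.4 ± 37.7, Slc10a1 at 61.6 ± 44.1, Nr1h4 at 52.7 ± 11.0 and Nr0b2 at 43.9 ± 14.8 (SD, n = 10). Cyp27a1 exceeded Abcb11 in all 10 tumours, by 1.09 ± 0.54 on the log2 scale of TPM. Of the other 8 neighbours in this order, 6 did not differ beyond the spread of their log2 ratio: Abcb11 and Cyp7a1, Cyp7a1 and Cyp8b1, Cyp8b1 and Abcc2, Abcb4 and Baat, Slc10a1 and Nr1h4, and Nr1h4 and Nr0b2. Within these, Abcb11 lay above Cyp7a1 in 9 of 10 tumours and Abcb4 above Baat in 8 of 10, and with the longest transcript as the length Abcb4 had 171 TPM against 78.5 for Baat. Abcc2 lay above Abcb4 in 9 of 10 tumours and Baat above Slc10a1 in 10 of 10, but both orders turned when the longest transcript was used as the length, with mean levels of 158 TPM for Abcc2 against 171 for Abcb4 and of 78.5 for Baat against 83.2 for Slc10a1. Counting on the wrong gene could also touch these levels where exons overlap. In GENCODE M39, Cyp27a1 shares 32.8% of its exon bases with Prkag3 on the opposite strand, which held 81 counts over the 10 tumours, and Slc10a1 shares 8.03% with Srsf5, which averaged 73.6 ± 11.4 CPM (SD, n = 10). Abcb4 shares 0.776% of its exon bases with Crot, at 421 ± 98.7 CPM (SD, n = 10). Whether counting used the strand was not stated, so reads of these overlaps could not be assigned with certainty.

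The spread was measured as the SD of log2 CPM between the 10 tumours, with a prior count of 2, over the 12462 genes that passed the expression filter. Of the 10 members, all of which passed, 7 had an SD above the median of all genes, 0.33, and the median of the members was 0.53. An SD over 1 was found for 2 of 10 members, Cyp8b1 at 1.78 and Slc10a1 at 1.06. It was found for 5.18% of all genes, or 8.37% without the filter. Cyp8b1 thus varied more than 99.6% of genes and Slc10a1 more than 95.7%. Cyp7a1 followed with 0.79, Nr0b2 with 0.62, Abcc2 with 0.55, and Abcb11 and Baat with 0.51 each. Below the median of all genes lay Cyp27a1 at 0.32, Nr1h4 at 0.29 and Abcb4 at 0.22. These places rest partly on single tumours. Without tumour 04 the SD of Cyp8b1 was 1.21 and that of Slc10a1 was 0.87, without tumour 12 that of Slc10a1 was 0.93, and without tumour 09 that of Cyp27a1 was 0.18.

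**Figure D2:**
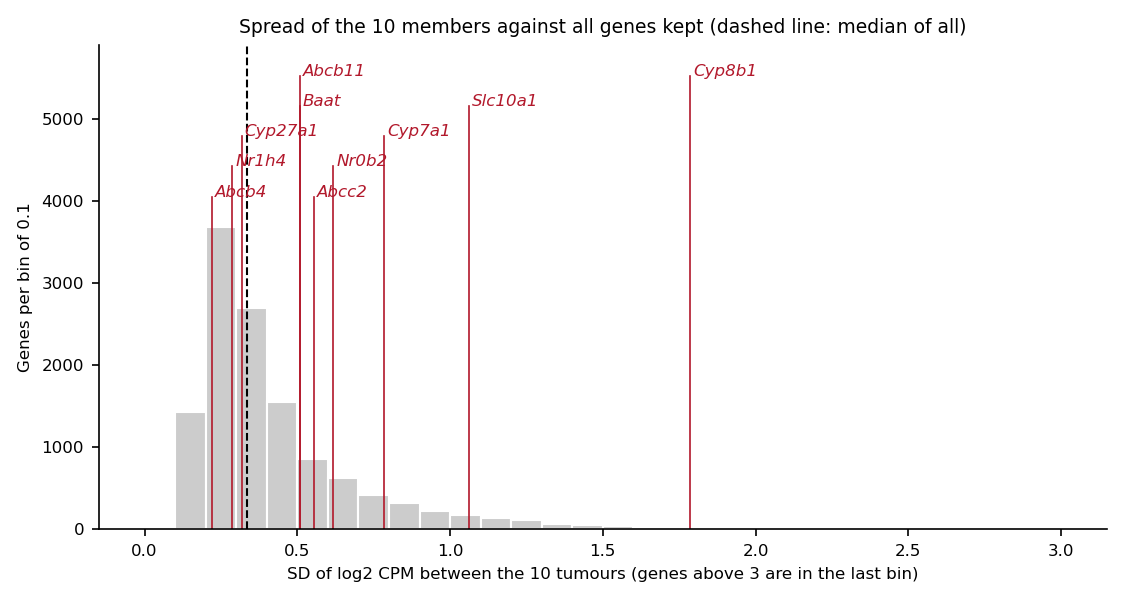
Number of genes (vertical axis) by SD of log2 CPM between the 10 tumours (horizontal axis, bins of 0.1) for the 12462 genes kept, with the 10 members as red lines and the median of all genes, 0.33, as a dashed line. Cyp8b1 and Slc10a1 lie beyond an SD of 1, and Abcb4, Nr1h4 and Cyp27a1 lie left of the median.

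Taking the members over each tumour, tumour 12 was highest for 5 of the 10, tumours 08 and 13 for 2 each and tumour 07 for 1. The lowest values fell in tumour 04 for 3 members, tumour 06 for 3, tumour 05 for 2 and tumour 09 for 2. Tumour 08 lay above the mean log2 CPM for 10 of 10 members, tumours 11 and 12 for 9 of 10, and tumour 05 for 1 of 10. How far the members varied together was then described pair by pair; pairs of other genes were not computed, so the counts of pairs have no background.

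Over the 45 pairs of members, Pearson's r of log2 CPM was positive in 41, with a median of 0.44 and a range from -0.20 to 0.90. After Benjamini-Hochberg adjustment over the 45 pairs, 2 pairs passed 0.05 by r in two-sided permutation tests with 100000 resamples, and 7 had an unadjusted p under 0.05. None passed by Spearman's rho, for which the smallest adjusted p of the permutation tests was 0.0535. Both pairs that passed held Cyp7a1, with an exporter as the partner.

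Cyp7a1 and Abcc2 had r = 0.90 (permutation p = 0.00073, adjusted p = 0.0234) and rho = 0.89 (permutation p = 0.00119, adjusted p = 0.0535) over the 10 tumours. Without tumours 06 and 12, the farthest from the median of Cyp7a1, r was 0.93 (exact permutation p = 0.00127, n = 8). On deviations from the tag family means, r was 0.52 (exact permutation p = 0.237 over 1440 permutations within families). Cyp7a1 and Abcb11 had r = 0.86 (permutation p = 0.00104, adjusted p = 0.0234) and rho = 0.81 (permutation p = 0.00676, adjusted p = 0.0778). Without the same 2 tumours r was 0.73 (exact permutation p = 0.0363, n = 8), and on deviations from the family means it was 0.78 (exact permutation p = 0.00903). The value of r for Cyp7a1 and Abcc2 was thus lower within families, while that for Cyp7a1 and Abcb11 stayed close to its value over all tumours. After adjustment over the 45 pairs, neither passed within families (adjusted p = 0.737 and 0.406 by the exact permutation test). Leaving out tumour 05 or tumour 06 left 0 pairs past the threshold, although r of the 2 pairs was then still 0.76 to 0.89. Leaving out tumour 04 ended the call for Abcc2, with an adjusted permutation p of 0.0756, and leaving out tumour 12 ended that for Abcb11, with 0.110.

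**Figure D3:**
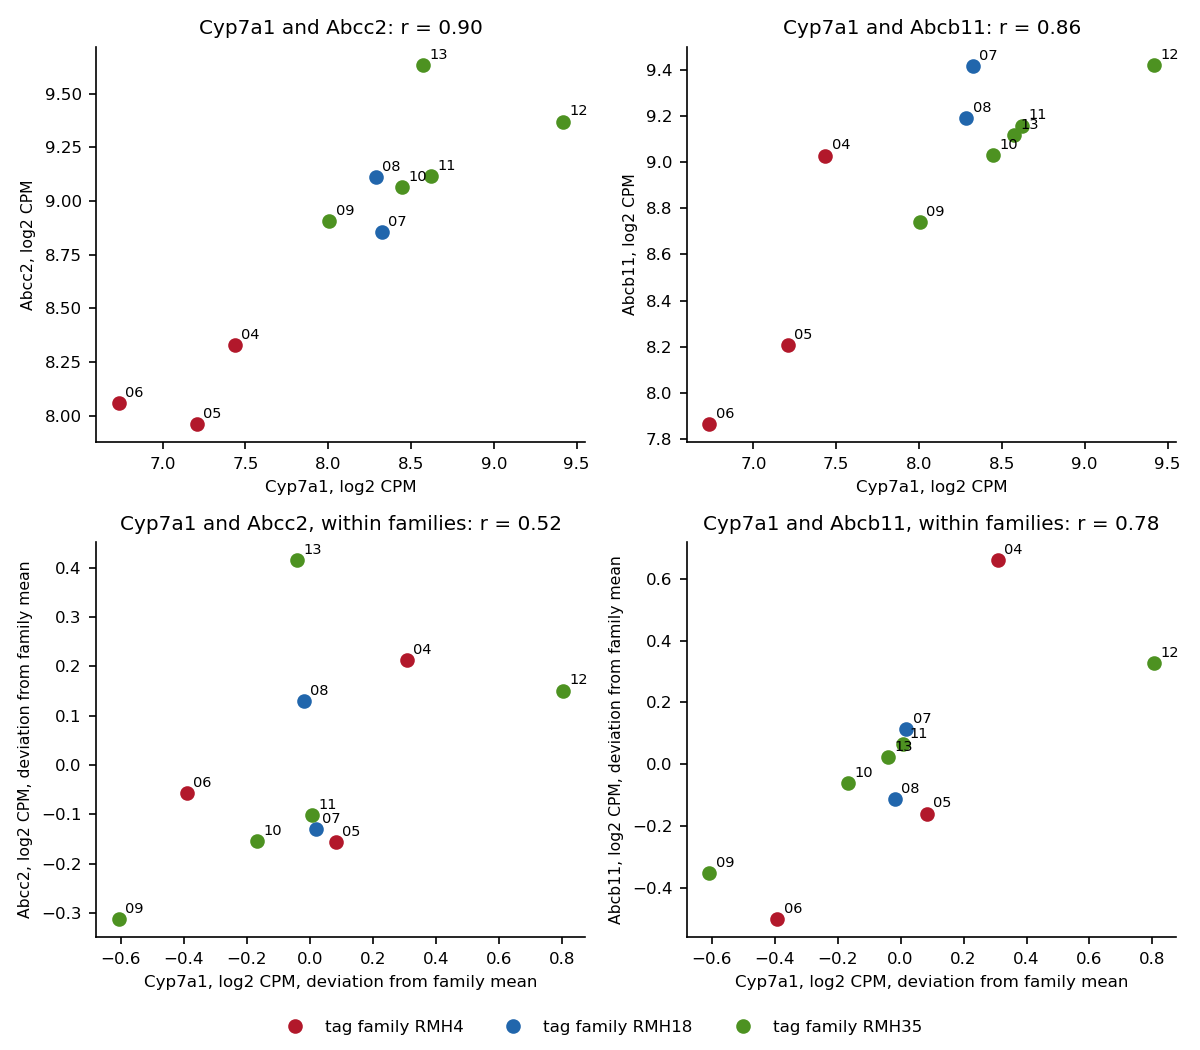
Level of Cyp7a1 (horizontal axes) against Abcc2 (left) and Abcb11 (right) in log2 CPM, 1 point per tumour, numbered and coloured by tag family. The upper panels show all tumours (r = 0.90 and 0.86) and the lower panels the deviations from the tag family means (r = 0.52 and 0.78).

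The exporters Abcb11 and Abcc2 had r = 0.78 (permutation p = 0.00846, adjusted p = 0.127), which fell to 0.27 without tumours 05 and 06 and so rested on them. For the receptor axis, Abcb11 and Nr0b2, both induced by FXR, had r = 0.70 (permutation p = 0.0261, adjusted p = 0.196) and rho = 0.83 (permutation p = 0.00482, adjusted p = 0.0778). Nr1h4 and Nr0b2 had r = 0.47 (permutation p = 0.171, adjusted p = 0.365). The corepressor Nr0b2 had r = 0.51 with Cyp7a1 (permutation p = 0.130, adjusted p = 0.325) and 0.27 with Cyp8b1 (permutation p = 0.441, adjusted p = 0.640), and neither passed. On deviations from the family means these 2 values were 0.38 and -0.26, so that the sign for Cyp8b1 turned, and they were 0.52 for Abcb11 and Abcc2, 0.52 for Abcb11 and Nr0b2 and 0.33 for Nr1h4 and Nr0b2. Cyp8b1 and Slc10a1, the 2 members with the widest spread, had r = 0.63 (permutation p = 0.0508, adjusted p = 0.263), which was 0.25 without tumours 04 and 10 and 0.52 on deviations from the family means. The phospholipid exporter Abcb4 had r from -0.20 with Cyp27a1 to 0.39 with Abcb11, and it took part in all 4 negative pairs. Several of these values turned when 1 tumour was left out. Without tumour 06, r of Abcb4 was -0.30 with Abcb11, -0.44 with Cyp7a1 and 0.04 with Baat, and without tumour 04 it was 0.16 with Cyp8b1.

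**Figure D4:**
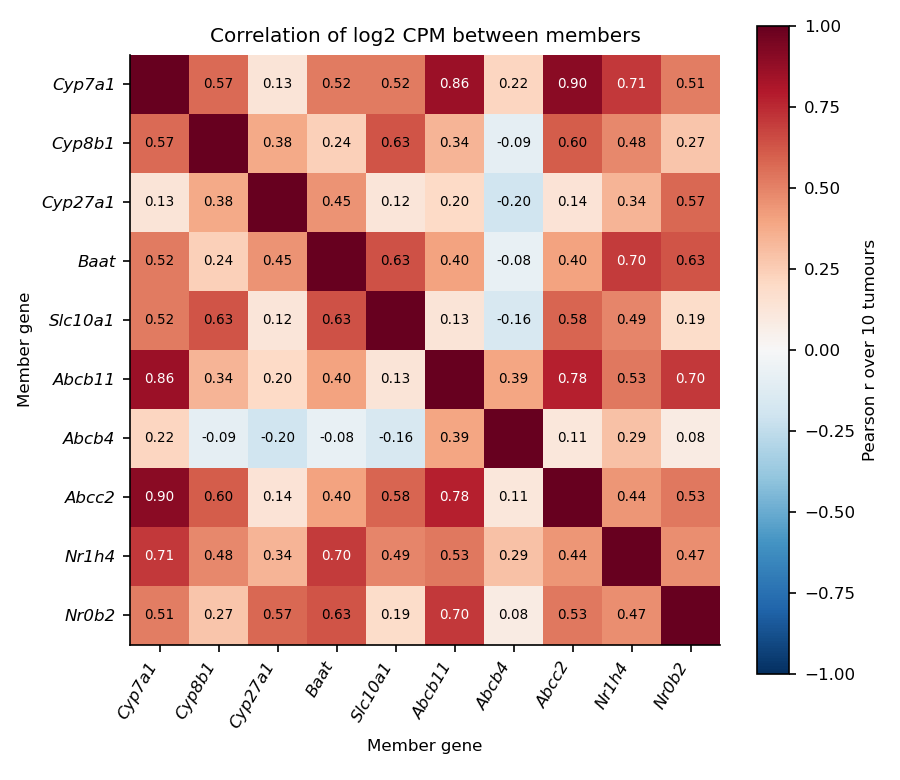
Pearson's r of log2 CPM over the 10 tumours for each pair of members (both axes), from blue for -1 to red for 1. Cyp7a1 with Abcc2 (0.90) and with Abcb11 (0.86) are the highest, and the row of Abcb4 holds the 4 negative values.

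Differences between the tag families were tested over all 12462 genes with edgeR's quasi-likelihood F-test. None of the 10 members had an adjusted p under 0.05, against 0.00802% of all genes (1 of 12462), and 3 of 10 members had an unadjusted p under 0.05, against 14.0% of all genes (1740). Without tumour 05 this held for 2 of 10 members and 6.39% of all genes (807). The 3 were Abcc2 (p = 0.000781, adjusted p = 0.157), Cyp7a1 (p = 0.00150, adjusted p = 0.170) and Abcb11 (p = 0.0437, adjusted p = 0.347) in the edgeR test. Without tumour 09 the first 2 passed, with an adjusted p of 0.0441 each, in a fit that called 1.39% of all genes (175), and DESeq2 called the same 2 members among 4.26% of all genes (508). Cyp7a1 averaged 142 ± 33.6 CPM in family RMH4 (SD, n = 3), 316 ± 5.81 in RMH18 (SD, n = 2) and 413 ± 161 in RMH35 (SD, n = 5). Abcc2 averaged 279 ± 37.8 CPM in RMH4 (SD, n = 3), 508 ± 64.1 in RMH18 (SD, n = 2) and 605 ± 124 in RMH35 (SD, n = 5). For these 2 of 10 members, the tumours of family RMH4 lay below all other tumours without overlap, which held for 2.80% of all genes. No member lay above without overlap, which held for 2.63% of all genes.

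Next, the members were set against 5 scores, each the mean log2 CPM of a gene list, to ask whether they varied with β-catenin targets, periportal genes, proliferation genes, acute phase genes or genes of non-parenchymal cells. Slopes are the change in log2 CPM per unit of score, from edgeR's quasi-likelihood test over all 12462 genes. No slope of a member passed adjustment in any of the 5 fits, in which 0 to 1.58% of all genes were called. The directions of the slopes are therefore given as values.

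With the β-catenin target score, which ranged from 7.72 in tumour 06 to 8.92 in tumour 07, edgeR called 0 of 10 members and 0.0401% of all genes (5). The median slope was 0.57 for the members and -0.01 for all genes. The largest relative to its error was Abcb11 with 1.01 ± 0.30 (SE, adjusted p = 0.176), followed by Nr0b2 with 1.09 ± 0.35 (SE, adjusted p = 0.198), both by edgeR and the only 2 of 10 members with an unadjusted p under 0.05, against 14.9% of all genes. DESeq2 called Abcb11 (adjusted p = 0.0305) among 3.27% of all genes. In edgeR the slope of Abcb11 was 0.65 with the median of the list as the score (adjusted p = 0.507) and 0.76 with tag family as a further term (adjusted p = 0.543). Cyp7a1 had a slope of 1.21 ± 0.60 (SE) and Slc10a1, the only member below 0, one of -0.23 ± 0.93 (SE). Without tumour 06 the slope of Cyp7a1 was 0.70, and its lowest value over all alternatives was 0.57. Without tumour 07 the slope of Slc10a1 turned to 0.44, while it was -2.64 with tag family as a further term.

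The acute phase score, of genes that the liver raises in inflammation, was 9.93 in tumour 06, 7.86 in tumour 05, and 5.61 to 7.06 in the other 8. All 10 members had a slope below 0, with a median of -0.15 against -0.00 for all genes, of which 50.8% lay below 0. Those of Cyp27a1 (-0.003 ± 0.084), Slc10a1 (-0.005 ± 0.253) and Baat (-0.033 ± 0.129) lay closer to 0 than their SE. The count of members below 0 was 7 of 10 without tumour 05 and 8 to 10 without each of the other tumours. It was 6 of 10 with tag family as a further term. edgeR called 0 of 10 members and 0.217% of all genes (27). Unadjusted p was under 0.05 for 12.4% of all genes and for 3 of 10 members, Abcb11 at -0.37 ± 0.08 (SE, adjusted p = 0.128), Cyp7a1 at -0.51 ± 0.15 (SE, adjusted p = 0.232) and Abcc2 at -0.32 ± 0.11 (SE, adjusted p = 0.294) in the edgeR fit. DESeq2 called Abcb11 (adjusted p = 0.000486) and Cyp7a1 (adjusted p = 0.0155) among 2.37% of all genes. The 2 tumours with the highest score, 05 and 06, share the full tag RMH4_5c of family RMH4 and may not be independent. They were among the 3 lowest tumours for each of Abcb11, Cyp7a1 and Abcc2. Without tumour 06 the slope of Abcc2 was -0.52, with an adjusted p of 0.387 by edgeR. With tag family as a further term the slope was -0.31 for Abcb11, -0.19 for Cyp7a1 and -0.05 for Abcc2, with an adjusted p in edgeR of 0.694 to 0.965. The non-polyadenylated RNA score, a technical measure, averaged 5 genes, of which 2 passed the expression filter and 2 averaged under 3 counts per tumour. It was also above 0 in tumours 05, 06 and 07 and below 0 in the other 7. With it as a further term the slopes were -0.38 for Abcb11, -0.43 for Cyp7a1 and -0.24 for Abcc2.

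With the periportal score, edgeR called 0 of 10 members and 0.0241% of all genes (3), and unadjusted p was under 0.05 for 2 of 10 members and 3.88% of all genes (484). The latter was 1.91% without tumour 12, where 0 of 10 members had such a p, and 6.67% without tumour 13. These were Baat with 0.30 ± 0.08 (SE) and Slc10a1 with 0.46 ± 0.17 (SE), both at an adjusted p of 0.978 by edgeR. Without tumour 12 the slopes were 0.19 and 0.31. The score ranged from 1.18 in tumour 05 to 4.84 in tumour 08, and it was also high in tumour 12 at 4.44. Tumours 08 and 12 held the 2 highest values of both genes. DESeq2 called 0.160% of all genes (20) and no member with this score. With the proliferation score, edgeR called 0 of 10 members and 0 genes in all, with 5.45% of genes (679) at an unadjusted p under 0.05 (8.47% without tumour 08), whereas DESeq2 called 0.441% of all genes (55) and no member. Slc10a1 had a slope of 1.86 ± 0.62 (SE, adjusted p = 0.708 by edgeR), the only member with an unadjusted p under 0.05. With a non-polyadenylated RNA term, 0 of 10 members had such a p, against 2.76% of all genes. Without tumour 06 or tumour 08 it was 2 of 10, against 5.61% and 8.47% of all genes. With the non-parenchymal score, 1.58% of all genes were called by edgeR (197) and 0 of 10 members, none of which had an unadjusted p under 0.05, against 10.2% of all genes. DESeq2 called 3.42% of all genes (426) and no member in that fit. Slopes lay below 0 for 9 of 10 members (6 of 10 without tumour 09) and for 56.4% of all genes. The lowest was -0.41 ± 0.40 (SE) for Slc10a1, which was -0.17 without tumour 12 and -0.22 without tumour 07. Across the tumours the summed level of the 8 endothelial genes ran from 41.2 to 351 CPM, of the 8 stellate and fibroblast genes from 239 to 1809.8 and of the 8 macrophage genes from 113 to 344.

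**Figure D5:**
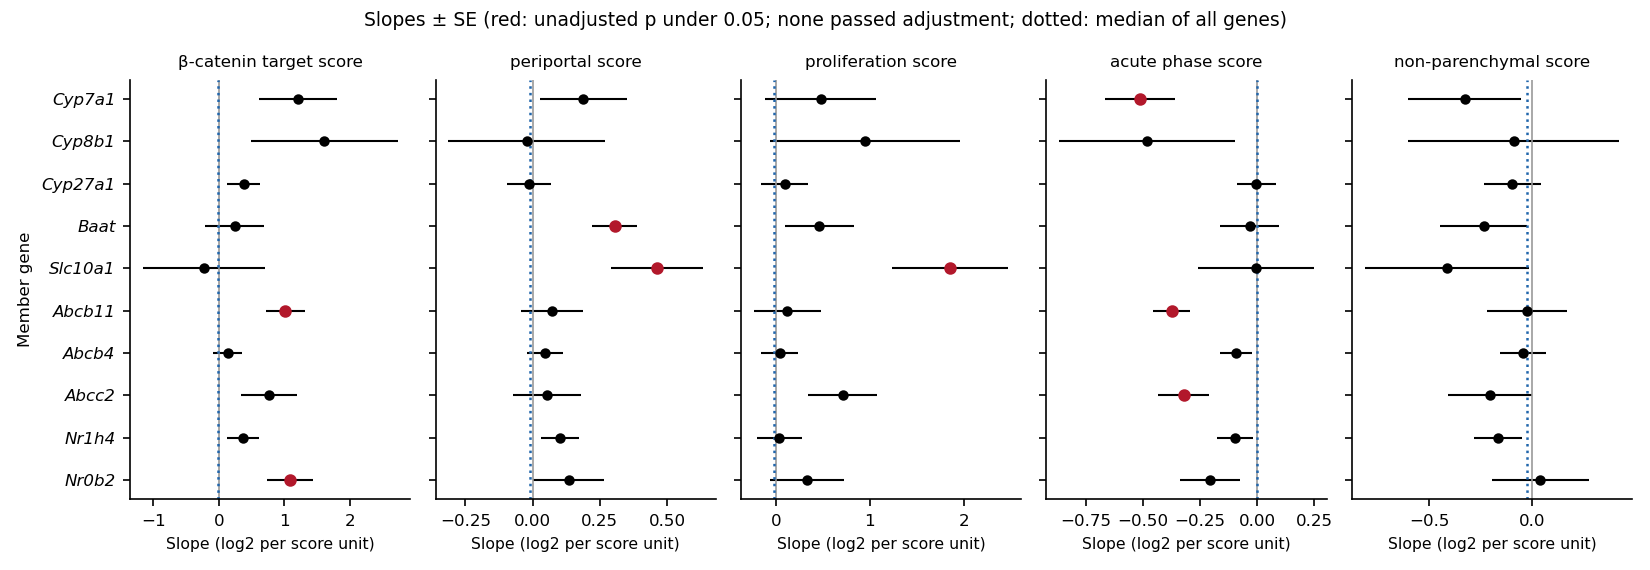
Slope of each member (rows) in log2 CPM per unit of score, with its SE, for the 5 scores (panels). Red points had an unadjusted p under 0.05, none passed adjustment, and the dotted line is the median slope of all genes. The acute phase panel has all 10 members below 0, with Cyp27a1, Slc10a1 and Baat closer to 0 than their SE.

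The wider pathway was followed with a list of 50 further genes of bile acid synthesis, transport, regulation and detoxification, of which 40 passed the expression filter. In the description by role, levels cover all listed genes and SDs are ranked among those that passed the filter. As for the members, edgeR called 0 of 40 in each of the 6 fits. An unadjusted p under 0.05 was found for 10 of the 40 between tag families, against 14.0% of all genes, for 7 with the β-catenin score (14.9%), 2 with the periportal score (3.88%), 1 with the proliferation score (5.45%), 8 with the acute phase score (12.4%) and 6 with the non-parenchymal score (10.2%). DESeq2 called 5 of 40 between tag families (Slco1a1, Slco1a4, Slco1b2, Sult2a8 and Zfp36l1), 4 with the β-catenin score, 2 with the acute phase score and 1 with the non-parenchymal score. The shares of all genes called in these 4 fits were 4.26%, 3.27%, 2.37% and 3.42%. Of the 40, 27 had an SD above the median of all genes and 2 an SD over 1, Cyp2c70 and Sult2a8, with a median SD of 0.47.

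Among the 15 other synthesis genes, the most abundant per length was Scp2, the sterol carrier and thiolase of side-chain shortening, at 820 TPM, which also had the smallest SD (0.19). Among those that passed, the largest SD was that of Cyp2c70, which makes muricholic acids in mice, at 1.01, with 34.5 CPM in tumour 05 and 304 in tumour 12. Ch25h and Cyp2a12, which did not pass, had SDs of 2.29 and 1.80 at means of 2.52 and 7.77 CPM. Cyp46a1, the cholesterol hydroxylase of the brain, was the least abundant at 0.147 ± 0.141 CPM (SD, n = 10), within the range of the floors. Among the 13 other transport genes, Slco1b2, an uptake carrier of the sinusoidal membrane, was the most abundant at 628 TPM, and among those that passed Ephx1 varied least, with an SD of 0.24. Abcc4, a basolateral exporter, had the largest SD of those that passed, 0.80, from 87.4 CPM in tumour 12 to 521 in tumour 13. Slc51b, which did not pass, had an SD of 1.06 at a mean of 1.08 CPM. Slc51a, a subunit of a basolateral bile acid transporter, had counts in tumour 04 alone, at 0.351 CPM.

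Among the 19 other regulators, Hnf4a, a master regulator of hepatocyte genes, was the most abundant at 487 TPM. Its SD was 0.18, and that of Foxa2 was the smallest among those that passed, 0.16. Zfp36l1, an RNA-binding protein that destabilises Cyp7a1 mRNA, had the largest SD of those that passed, 0.75, from 62.3 CPM in tumour 10 to 281 in tumour 05. Of those that did not pass, Vdr had an SD of 1.30, Onecut1 of 1.09 and Gpbar1 of 0.89, at means of 0.605, 3.04 and 0.114 CPM. Fgf15, the ileal hormone that represses Cyp7a1, had counts in tumour 13 alone, at 0.0256 CPM. Among the 3 detoxification genes, Cyp3a11 was the most abundant at 1043 TPM and ranged from 497 CPM in tumour 13 to 2911 in tumour 08. Sult2a8, a hepatic bile acid sulphotransferase, had the largest SD of those that passed, 1.40, with 11.6 CPM in tumour 05 and 195 in tumour 12, while Cyp2b10 was the least abundant at 0.0817 ± 0.107 CPM (SD, n = 10).

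Finally, the genes whose pattern over the 10 tumours was most like that of 5 members were listed by Pearson's r of log2 CPM among all genes kept, as a description without a test. Slc38a4, an amino acid transporter, was most like Cyp7a1 with r = 0.99, followed by Pstpip2 and Marf1 with 0.96 each. For Abcb11 they were 2010315B03Rik with 0.99, Thoc7 with 0.97 and Slc2a2, the glucose transporter of hepatocytes, with 0.96. Psmd12 and Dut had r = 0.88 with Cyp8b1, after 1 identifier without a symbol at 0.91. Slc10a1 was closest to Gid8 with 0.94, Cops5 with 0.92 and Med8 with 0.92. Nr0b2 was closest to Mrpl51 with 0.94, Nsmf with 0.93 and Erg28 with 0.93. These are the highest of 12462 genes for each member, and the 10 points share tag families.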

How the data were processed

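Polyadenylated RNA of mouse liver tumours was measured by paired-end sequencing of stranded libraries from snap-frozen tissue. The authors deposited 1 table of raw read counts per gene, not normalised. The submitters' processing notes name TopHat2, HTSeq and GRCm38 without versions or roles, and the strand option of the counting was not given in the sources used here. Columns were matched to samples by the number in the title, which was possible for the 10 tumours 04 to 13 of group Tumour. The other 9 columns were not used, so the planned comparisons with control livers were not analysed here.

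The 10 members and all gene lists were chosen with earlier results of these data known. From the counts, TMM factors, CPM and log2 CPM (prior count 2) were computed with edgeR 4.0.16 in R 4.3.3, over genes kept by filterByExpr with the tumours as 1 group. Tests across genes were edgeR quasi-likelihood F-tests with Benjamini-Hochberg adjustment, first tested on simulated data. TPM used exon unions of GENCODE M39, which gave a symbol for 87.3% of identifiers. Positions and upstream sequence came from RefSeq on GRCm38.p6. Named pathway genes were, within each role, the most and the least abundant and those with the largest and the smallest SD among genes that passed the filter, or any gene called by edgeR. Ch25h, Cyp2a12, Slc51b, Vdr, Onecut1 and Gpbar1, and genes called by DESeq2 alone, were named after their values were seen. The 3 genes most like a member were listed for 5 members. Scores averaged 12 β-catenin targets, 8 periportal, 12 proliferation, 13 acute phase, 24 non-parenchymal and 5 non-polyadenylated RNA genes. Alternatives were RLE scaling, DESeq2 1.42.0, no filter, a prior count of 0.5, longest transcripts, a median score, tag family or non-polyadenylated RNA terms and leaving out each tumour. Nothing says that the tumours came from separate mice, so p-values measure only the spread between these samples. Permutation tests and plots used Python 3.11.15, numpy 2.4.6 and matplotlib 3.10.9.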

Additional observations from a re-analysis of the deposited data

Results flagged for a closer look

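Of the 30 members, scores and named pathway genes, 4 had a tumour farther from the others than Dixon's 95% critical value for 10 samples allows. Chance flags about 1 in 20 such groups, and 2 of the 4 were bound to meet the criterion because they had no counts in the other 9 tumours. Cyp27a1 was low in tumour 09, at 8.49 log2 CPM (359 CPM), where the other 9 lay between 9.09 and 9.59. The acute phase score was high in tumour 06, at 9.93, where the others lay between 5.61 and 7.86. The 2 genes with counts in a single tumour were Slc51a, at -1.15 log2 CPM in tumour 04, and Fgf15, at -2.99 log2 CPM in tumour 13, against -3.32 for a count of 0. The level of Fgf15, 0.0256 CPM, lies below the floor of 3 counts.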

How the results depend on the processing

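The mean CPM of each member moved by less than 1 SD with RLE scaling, and the 8 slopes of members with an unadjusted p under 0.05 kept their direction under every alternative run. With the longest transcript, Abcb4 (171 TPM) and Nr1h4 (75.5 TPM) moved by more than 1 SD. Over the alternatives of results that answer a comparison, 266 values stayed within 1.5 times the main count or within 1 SD and 74 did not. A count of 0 in both was taken as stayed. This covers most counts of members and pathway genes called, which were 0 in every main fit. Most counts of all genes called moved by more than 1.5 times. A tally across single members took in levels, SDs, the pairs past adjustment and the family results of Abcc2, Cyp7a1 and Abcb11. It also took in the 8 slopes above and those of Cyp7a1 and Slc10a1 with the β-catenin score and Slc10a1 with the non-parenchymal score. A family result, or a slope of the same sign, counted as held if it gained no call, whatever its size. Of these values, 379 held, 3 moved, 7 gained a call, 8 lost it and 1 turned its direction. That 1 was the slope of Slc10a1 with the β-catenin score, at -0.54 to 0.44 with each tumour left out (0.44 without tumour 07). Slopes outside it turned too. With a tag family term, 5 of 10 members lay below 0 with the proliferation score, against 0 without it.

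DESeq2 called 508 genes between tag families (2 members, 5 pathway genes), 392 with the β-catenin score (1 member, 4 pathway genes), 20 with the periportal score, 55 with the proliferation score, 290 with the acute phase score (2 members, 2 pathway genes) and 426 with the non-parenchymal score (1 pathway gene). Without a filter edgeR called 27 genes between families, 8 with the β-catenin score and 5 with the periportal score. With a non-polyadenylated RNA term it called 0, 51, 1 and 8 genes for families and the β-catenin, periportal and acute phase scores. With a tag family term it called 0, 0 and 3 genes for the β-catenin, periportal and acute phase scores. A median score gave 2 genes for β-catenin and 13 for acute phase, and RLE scaling gave 17 for acute phase. The cause was not tested.

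Leaving out each tumour gave 0 to 175 genes between families (175, with 2 members, without tumour 09; 86, with 1 pathway gene, without tumour 04), 0 to 26 with the β-catenin score (26 without tumour 07), 0 to 4 with the periportal score, 11 to 20 with the acute phase score and 58 to 492 with the non-parenchymal score (58 without tumour 09, 60 without tumour 07, 492 without tumour 05). Pathway genes called were 0 to 1 between families and 0 to 1 with the non-parenchymal score, and members called were 0 to 2 between families. Member pairs past adjustment were 0 to 2, members with an SD over 1 were 1 to 2, and deviations from family means left 0 pairs. Chosen after seeing the data, regressing out the non-polyadenylated RNA score left 3 pairs and the non-parenchymal score 2. No paired analysis was possible because only the group Tumour was analysed here. The members held at least 76 counts in every tumour, and depth and the number of tumours were not compared as limits of the tests.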
